A study of Homo sapiens with 2 samples.

Results

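Sense intronic transcripts, named by the symbol of a host gene followed by IT and a number, are long noncoding RNA (lncRNA) genes annotated inside an intron of the host and, in general, on its strand. The members described here are the rows of the deposited count column whose Ensembl identifier has such a symbol in the gene annotation of GRCh37, 118 of 64081 gene rows, of which 55538 have a symbol. A host, the gene whose symbol is left when the ending is removed, was found for all 118 members, 1 of them by an older symbol, and the members fall into 110 different hosts. The data are RNA-seq counts of LNCaP, an established androgen-sensitive prostate carcinoma cell line, grown for 48 h with 10% charcoal stripped FBS in place of FBS, that is, without androgen. The 2 biological replicates gave poly(A)+ RNA that was sequenced from both ends in a strand-oriented protocol, and there is 1 condition, with no androgen-treated group. The counts of both replicates lie in 1 column and cannot be separated. No value therefore has a replicate error, and no test between samples was possible. The 95% intervals of counts and of ratios hold the counting error of read pairs alone. Each pair was taken as a separate molecule, since amplified copies of 1 molecule cannot be recognised without molecular identifiers. The 95% intervals of shares of genes are binomial over the genes and hold no counting error of pairs.

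Introns are removed from a transcript as it is spliced, and most intronic RNA is short-lived. A separate transcript that starts in an intron of its host can be spliced and polyadenylated on its own. Yet if it lies on the strand of the host, every one of its bases is also a base of the host's unspliced precursor. Reads of RNA from that strand can then come from either. Introns are also where the genome holds much of its interspersed repeats, copies of mobile elements such as Alu, a short primate element, and LINE-1, a long one that encodes a reverse transcriptase. Few members have a described function, and most are known from annotation alone.

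A read pair was counted for a gene by htseq-count, and 9495309 pairs were counted on genes in all, whereas 138995418 were placed on no annotated exon of the counted strand, 209463 were ambiguous and 34171204 alignments were not unique. In a library of the type stated for these cells the first read has the strand of the RNA, and the counting setting stated for stranded pairs takes the strand opposite to the first read. Combined, these settings put pairs transcribed from 1 strand into the genes annotated on the other, so a listed count would stem from RNA antisense to its gene. A member and its host lie on the same strand in 117 of 118 pairs, so the same strand is counted for both, although exons opposite other genes are more frequent in hosts than in members (38 of 110 hosts and 4 of 118 members). The exception is WARS2-IT1, annotated on the plus strand while WARS2, which encodes the mitochondrial tryptophanyl-tRNA synthetase, lies on the minus strand. The counts listed for 11 epithelial and prostate luminal markers ranged from 6 to 6947 with a median of 18, KRT8 being the highest, and those of 6 markers of other cells from 0 to 31. These values are subject to the same settings, so they check the identity of the cells little. In a bulk sample, fewer cells with an RNA and less of it per cell cannot be told apart.

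Most members had few or no counts. Of the 118 members, 72 were at 0 (61.0%, exact binomial interval 51.6% to 69.9%), 35 had 1 to 9 counts and 11 had 10 counts or more (9.32%, 4.75% to 16.1%). Against this, 26.5% of all genes with a symbol and 28.4% of all lncRNA genes had at least 10 counts. The members together held 1235 counts, 0.0130% of all pairs counted on genes. RABGAP1L-IT1 alone held 46.6% of them, the 5 members with the highest counts 81.5%, and the 11 members with at least 10 counts 92.5%. A count of 0 allows up to 3 counts, which for members of 109 to 3539 exonic nt is a level of up to 27.5 to 0.848 pairs per kb.

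Among lncRNA genes grouped by the ending or the start of their symbol, the members were nearest to long intergenic genes (LINC), of which 10.9% had at least 10 counts (interval 9.63% to 12.3%) and 69.1% were at 0. Of the divergent genes (DT), which start near the promoter of a partner and run the other way, 27.3% reached 10 counts. Antisense genes (AS), on the strand opposite to their partner, reached it in 51.1%. Under the stated settings, the pairs listed for AS genes would come from the strand of the partner. The interval of the members holds the share of the LINC genes and not those of the DT and AS genes. The hosts had at least 10 counts in 49 of 110 genes (44.5%), beside 44.2% of all protein-coding genes. The classes differ in length, with a median of 558 exonic nt in members, 1960 nt in LINC genes and 8672 nt in hosts, and the part of length in these shares was not tested.

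The exons of most members with high counts share a feature beyond their name, here called repeated bases. These are bases covered by a 24-nt word that occurs at 100 or more places in the genome, both strands included. Over 25% of exonic bases are repeated in 8 of the 11 members with at least 10 counts. This holds for 19 of all 118 members and for 7.06% of all lncRNA genes. Reads from such bases have many near copies elsewhere, and only pairs placed uniquely were counted. In RABGAP1L-IT1 the last exon is covered over 157 of 220 nt. The last exon of FMR1-IT1 is covered over all of its 104 nt and that of DPYD-IT1 over 187 of 266 nt.

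BRWD1-IT2 had 99 counts and holds no repeated base at all, so its sequence is shown as the contrast. It is a single exon of 1000 nt with 58.6% G and C and 64 CpG dinucleotides. The sequence is from GRCh37, 5′ to 3′ on the annotated strand, and in its last 300 nt (chr21:40685887-40686186, minus strand) capitals mark the 37 CpG dinucleotides.
BRWD1-IT2, last 300 nt: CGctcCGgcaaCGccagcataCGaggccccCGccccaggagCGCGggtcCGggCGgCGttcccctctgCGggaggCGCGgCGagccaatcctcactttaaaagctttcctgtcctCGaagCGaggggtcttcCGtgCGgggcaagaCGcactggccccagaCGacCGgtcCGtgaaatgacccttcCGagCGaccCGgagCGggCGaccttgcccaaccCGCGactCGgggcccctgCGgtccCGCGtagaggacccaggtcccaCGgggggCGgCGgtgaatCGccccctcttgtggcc

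RABGAP1L-IT1, on the plus strand of chromosome 1, had the highest count of all members, 576 (exact Poisson interval 529.9 to 625.0). It has 2 exons of 737 nt in all and lies 19352 nt from the nearest exon of RABGAP1L, which encodes a GTPase-activating protein of the Rab family of membrane traffic regulators. The host had 273 counts (241.6 to 307.4) over 16071 exonic nt. Per kb of exons, the member was at 782 pairs and the host at 17.0, a ratio of 46.0 (39.8 to 53.3).

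WARS2-IT1 followed with 167 counts (142.6 to 194.3) over 2060 nt, beside 182 for WARS2. Per kb this is 81.1 against 47.5, a ratio of 1.71 (1.37 to 2.12). Since this member lies on the other strand than its host, its pairs would come from the strand of WARS2 under the settings, and the pairs listed for WARS2 from the strand of the member. Its repeated bases cover 61.0% of its length and lie in the last exon.

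FMR1-IT1 and BRWD1-IT2 had 99 counts each (80.5 to 120.5). FMR1, which encodes an RNA-binding regulator of translation at synapses, was itself listed at 0. Under the stated settings this 0 would be of RNA antisense to FMR1, so it does not show that FMR1 was silent. By the listed counts, FMR1-IT1 was at least 990-fold higher per kb than FMR1, with the host set at 3 counts. The lower limit of the interval of the ratio, which also holds the counting error of the member, was 790. BRWD1, a chromatin reader with bromodomains and WD repeats, had 75 counts over 22595 nt, which puts BRWD1-IT2 at 29.8 times its level per kb (21.9 to 40.8). BRWD1-IT2 ends 142 nt before an annotated start of BRWD1, and 5 of the 16 annotated transcripts of that gene start within 1000 nt after its 3′ end. BRWD1-AS1, on the opposite strand 747 nt away, was at 0. The same host carries BRWD1-IT1, which had 4 counts (1.09 to 10.2), so that members of the same host differed beyond counting error.

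DPYD-IT1 had 65 counts (50.2 to 82.9) in 401 nt, whereas DPYD, the enzyme that starts the breakdown of pyrimidines and of fluorouracil, had 2. The ratio per kb was 578 with a wide interval (154 to 4873), since it rests on the 2 counts of the host. THRB-IT1, within the gene of the thyroid hormone receptor beta, had 41 counts (29.4 to 55.6) beside 26 for THRB, a ratio of 9.86 per kb (5.89 to 16.8). The count of DPYD is under the limit that a count of 0 allows, and that of THRB lies above the median of 7 counts of the hosts.

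The remaining members with at least 10 counts lie in hosts of unlike function. KDM5C-IT1 had 28 counts, beside 6 for KDM5C, a demethylase of histone H3, and lies 10 nt from an exon of that host. DISC1-IT1 had 24 counts, beside 7 for DISC1, a scaffold protein of neurons. WWTR1-IT1 had 15 counts, beside 44 for WWTR1, the co-activator TAZ of the Hippo pathway. Their intervals run from 18.6 to 40.5, from 15.4 to 35.7 and from 8.40 to 24.7 counts, so the last reaches below the minimum of 10. ZDHHC20-IT1 had 15 counts beside 2 for ZDHHC20, a palmitoyltransferase, and like BRWD1-IT2 holds no repeated base. Per kb, ZDHHC20-IT1 was at 112 times its host (26.1 to 1011), KDM5C-IT1 at 76.2 times (30.95 to 225.0) and DISC1-IT1 at 58.2 times (24.3 to 159.9), ratios above those of RABGAP1L-IT1 and BRWD1-IT2 but with wide intervals, since their hosts had 2 to 7 counts. RSF1-IT1 had 13 counts (6.92 to 22.2) beside 16 for RSF1, a subunit of a chromatin remodelling complex. RSF1-IT2, in another intron of RSF1, had 3 (0.619 to 8.77), and these 2 intervals overlap. From BRWD1-IT2 and FMR1-IT1 down, neighbours in the order of counts have overlapping intervals, which does not show that they are equal, whereas RABGAP1L-IT1 and WARS2-IT1 lie apart from each other and from the rest.

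Just below the minimum of 10 were SIK3-IT1 and TRIM36-IT1 with 7 counts each and ANKRD44-IT1 and SMIM2-IT1 with 6 each. Their hosts encode a salt-inducible kinase, a ubiquitin ligase, an ankyrin repeat protein and a small membrane protein, and had 16, 93, 18 and 70 counts. Of the 35 members with 1 to 9 counts, 15 had a single count.

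**Figure D1:**
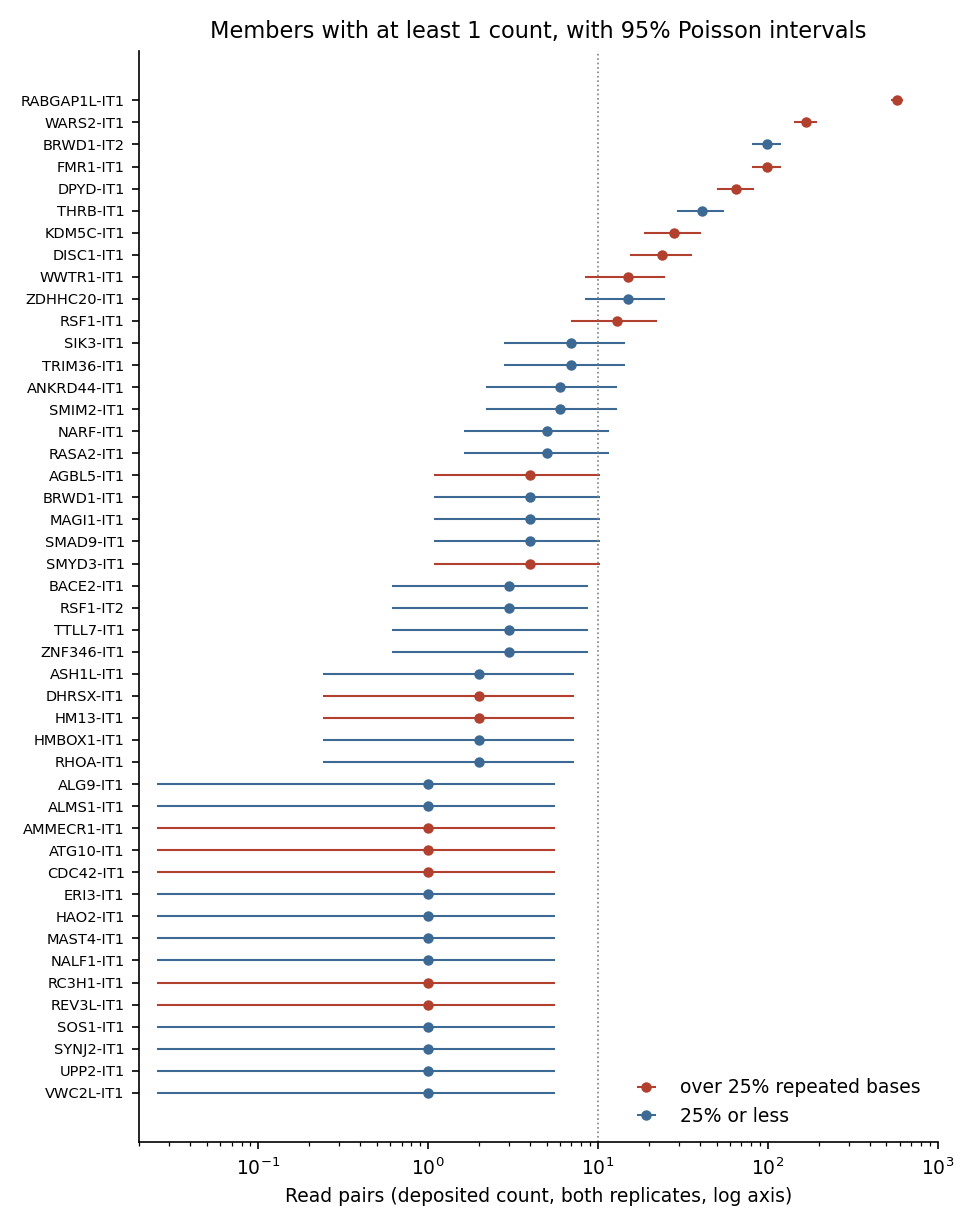
Deposited count of the 46 members with at least 1 count on a log axis, with exact Poisson 95% intervals as bars and the minimum of 10 counts as a dotted line; colour gives members with over 25% or with 25% or less of their exonic bases in repeated words. RABGAP1L-IT1 at 576 stands apart from WARS2-IT1 at 167. Over 25% repeated bases are found in 8 of the 11 members at or above 10 counts and in 19 of all 118 members. The share is 12.6% in lncRNA genes with at least 10 counts.

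In all, 7 hosts carry more than 1 member. Apart from BRWD1 and RSF1, all members of these hosts were at 0. They are BACH1-IT1, BACH1-IT2 and BACH1-IT3 in BACH1, a repressor of heme and iron genes that was at 0 itself, and pairs of members in NRG1 and OPCML, also at 0, in ATP2B2 with 7 counts and in the calcium channel gene CACNA1C with 34.

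The comparison with the host asks whether a member's count is more than what its host shows. Per kb of exons, the member was higher in 32 pairs, the host in 66, and 20 pairs were equal, all of them with 0 in both genes. The member was thus the higher one in 32.7% of the 98 unequal pairs (23.5% to 42.9%). In antisense pairs the gene named AS was the higher one in 60.5%, and in divergent pairs the gene named DT in 34.4%. Under the stated settings, pairs listed for an AS gene would come from the strand of its partner. The share of 60.5% therefore does not show which RNA of an antisense pair was higher. When the interval of the ratio in each pair is used, the member lay above its host in 16 pairs and below it in 11, and in 71 pairs the interval held 1. Most pairs therefore cannot be ordered at this depth.

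A median of the ratio over pairs is not a stable summary of these counts. With 0.5 added to each count, the median log2 ratio of member to host per kb was 1.45 over 118 pairs, whereas over the 57 pairs with at least 10 counts together it was −0.87. A pair with few counts has a ratio set mainly by the added 0.5 and by the lengths, and members are short. In those 57 pairs the host was higher in 40 and the member in 17. Across the 118 pairs, Spearman's rho of both values per kb was 0.32, and across the 57 pairs −0.05, a description of genes that share their libraries.

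Members at 0 were found at every level of the host. They made up 20 of the 24 members whose host was at 0, 26 of the 42 with a host of 1 to 9 counts, 22 of the 42 with a host of 10 to 99, and 4 of the 10 with a host of 100 or more. At least 10 counts were reached by 1, 4, 4 and 2 members of these groups. FMR1-IT1 was the member with at least 10 counts whose host was listed at 0, and in the 8 pairs with the lowest ratios the member had between 0 and 4 counts.

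**Figure D2:**
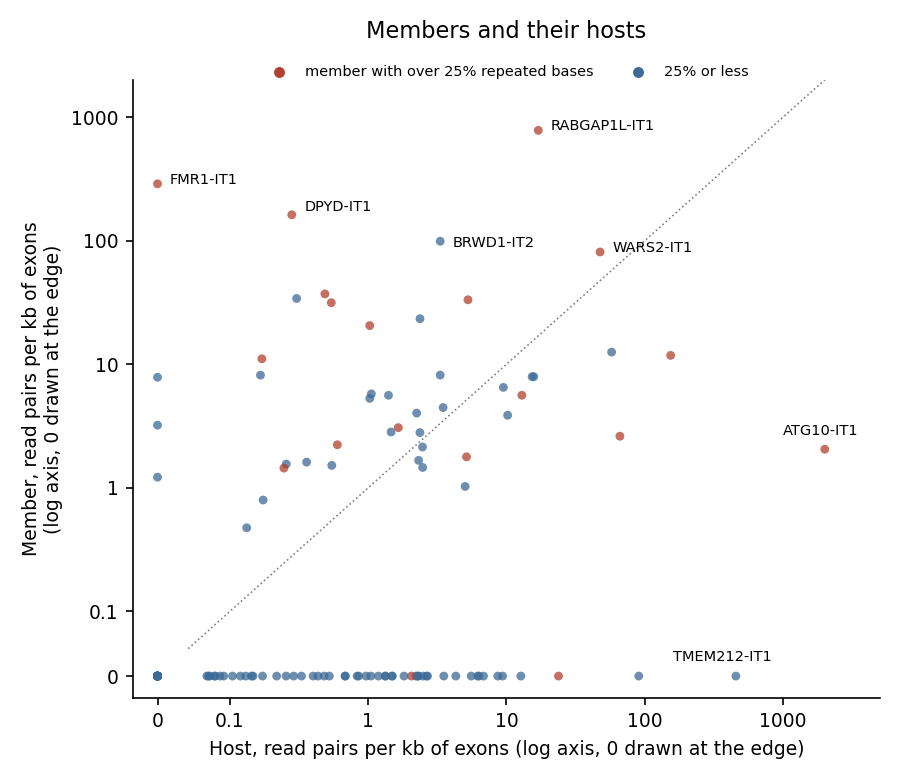
Read pairs per kb of exons of each member (vertical) against its host (horizontal), both on log axes with 0 drawn at the edge, with the line of equal values dotted and colour for members with over 25% repeated bases. Among the members named in the plot, RABGAP1L-IT1, FMR1-IT1, DPYD-IT1 and BRWD1-IT2 lie far above the line, as do the unnamed points of ZDHHC20-IT1, KDM5C-IT1 and DISC1-IT1 at ratios of 112, 76.2 and 58.2. ATG10-IT1 and TMEM212-IT1 lie far below it, and 72 members lie on the bottom edge.

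The 8 lowest ratios to the host were taken among pairs with at least 10 counts together. Such a ratio needs a host count well above that of the member, so the high host counts follow from the choice. ATG10, an E2-like enzyme of autophagy, had 10901 counts, and ATG10-IT1 had 1, which puts the host 975-fold higher per kb (175 to 38513). TMEM212-IT1 was at 0 beside 1240 counts for its host, which was at least 71.5-fold higher per kb with the member set at 3 counts (lower limit of the interval 58.0). ARHGEF38-IT1, in the gene of a guanine nucleotide exchange factor, was at 0 beside 686, and the host was at least 13.8-fold higher in the same way (lower limit 11.2). These hosts were among the 10 with at least 100 counts.
REV3L-IT1 had 1 count beside 821 for REV3L, the catalytic subunit of DNA polymerase zeta, and AGBL5-IT1 had 4 beside 813 for AGBL5, an enzyme that trims glutamates from tubulin. STX18-IT1 and FOXP1-IT1, in the genes of a SNARE protein of the endoplasmic reticulum and of a forkhead transcription factor, were at 0 beside 68 and 49. In all 8 pairs with the lowest ratios, these 7 included, the host has exonic bases opposite an exon of another gene, against 3 of the 8 pairs with the highest ratios and 38 of all 110 hosts (34.5%). Of the 49 hosts with at least 10 counts, 24 have such bases. In ATG10 these are 374 nt opposite RPS23, a ribosomal protein gene with a listed count of 94. The pairs were chosen by their ratio, so the 8 of 8 is a description.

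Under the stated settings, exonic bases opposite another gene's exon would take the pairs of that gene. Hosts with an exon opposite them had a median of 25 counts (38 hosts) and hosts without one a median of 3.5 (72 hosts). Per kb of exons the medians of these hosts lay closer together, at 1.655 and 0.4577 pairs. In all lncRNA genes the median counts were 11 (4489 genes) and 0 (8316 genes). Only 4 members have such bases, SMIM2-IT1 with 6 counts, BACE2-IT1 with 3, and BACH1-IT2 and FOXP1-IT1 at 0, so that none of the 11 members with at least 10 counts has any. When only the 75 pairs were kept whose host has no exon opposite it, the member was higher per kb in 22 and the host in 39.

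Repeated sequence went with the count across members. Of the 75 members with no base in a word of 100 or more copies, 2 had at least 10 counts (2.67%, 0.325% to 9.30%), and of the 24 with up to 25% such bases, 1 did (THRB-IT1). Of the 19 members with over 25%, 8 did (42.1%, 20.2% to 66.5%). In all lncRNA genes these shares were 24.1%, 30.3% and 50.8%, so a gradient in the same direction stands in the background as well, from a higher start. Members with at least 10 counts had a median of 36.7% repeated bases, and the other 107 a median of 0%. In lncRNA genes the medians were 2.91% with at least 10 counts and 0% under 10. Over 25% repeated bases were found in 72.7% of members with at least 10 counts and in 10.3% of the others. The same shares of lncRNA genes were 12.6% and 4.9%. Of all lncRNA genes, 7.06% have over 25% repeated bases.

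The most frequent word of a member also went with having a count, by a cut of 10000 copies. Word copies were added after the counts were seen, so this split is a description. Of the 37 members with a word of over 10000 copies, 33 had at least 1 count (89.2%, 74.6% to 96.97%), and of the other 81, 13 had (16.05%, 8.83% to 25.9%). In lncRNA genes, of which 29.8% hold such a word and 49.4% have at least 1 count, the corresponding shares were 69.5% and 40.8%. Among the 4 members at 0 in spite of such a word were BACH1-IT1, DAPK1-IT1 and GK-IT1, the last in the gene of glycerol kinase. Spearman's rho of the repeated share and the count was 0.70 over the 118 members, and that of exonic length and count 0.13. Whether pairs placed in these bases arose at the members or at other copies was not tested.

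**Figure D3:**
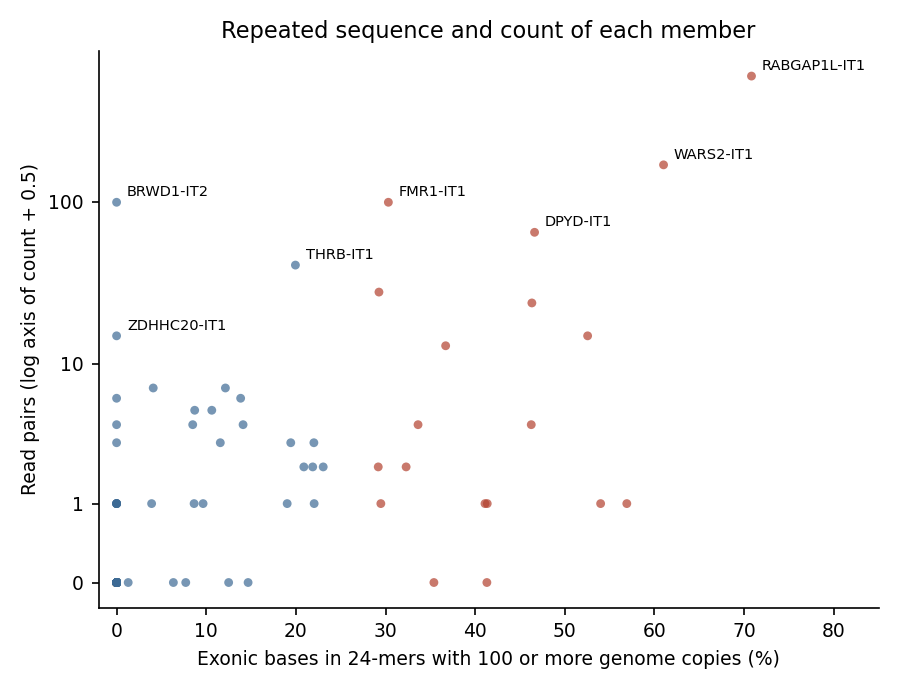
Count of each of the 118 members (vertical, log axis of count + 0.5) against the share of its exonic bases in 24-nt words with 100 or more genome copies (horizontal, %). RABGAP1L-IT1 and WARS2-IT1 have both the highest counts and over 60% repeated bases, whereas BRWD1-IT2 and ZDHHC20-IT1 reach 99 and 15 counts with none.

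Along the exons the repeats are uneven. In FMR1-IT1 the first 239 nt hold no base of a word with 100 copies and the last 104 nt hold nothing else. In DPYD-IT1 the first exon of 135 nt is free of such words. RABGAP1L-IT1 has them in both exons, over 365 of 517 nt and 157 of 220 nt, and its most frequent word occurs 93690 times. The deposited counts are 1 number a gene, so where in an exon the pairs lay was not analysed here.

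**Figure D4:**
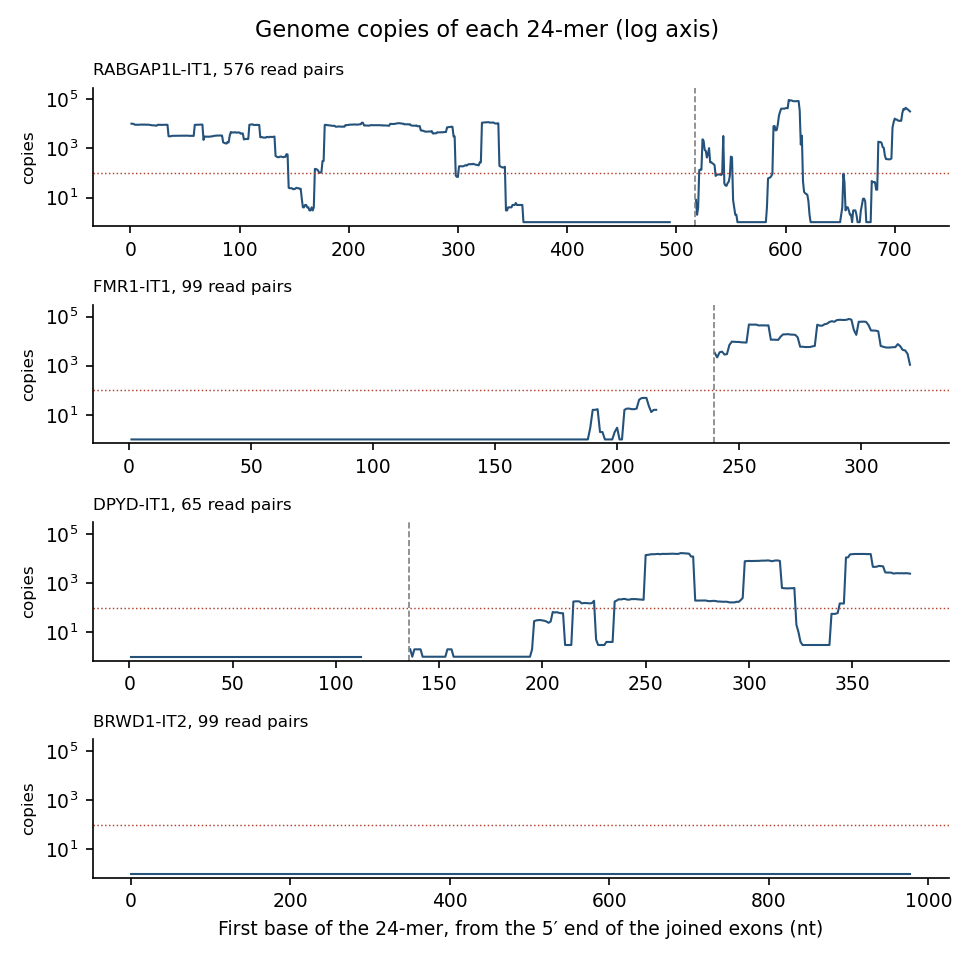
Number of genome copies (vertical, log axis) of the 24-nt word that starts at each base of the joined exons (horizontal, nt from the 5′ end) in 4 members, with exon borders dashed and 100 copies dotted. The words of RABGAP1L-IT1 reach 93690 copies and all words of BRWD1-IT2 occur once.

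A polyadenylation hexamer, the signal that precedes cleavage of an mRNA, was looked for as AATAAA or ATTAAA on the annotated strand in the last 50 nt, because the RNA was selected by its poly(A) tail. It was present in 47 of 118 members (39.8%, 30.9% to 49.2%) and in 47.5% of all lncRNA genes. Of the 11 members with at least 10 counts, WARS2-IT1 and WWTR1-IT1 have one (18.2%, 2.28% to 51.8%), beside 41.8% of the lncRNA genes with at least 10 counts. Under the stated settings the counted RNA would be antisense to this strand. Absence of these letters says only that they are not in this window.

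By groups of hosts made from the first letters of their symbols, members were mostly at 0 or had few counts. The groups follow the letters and not the function. Genes such as ANKRD44 fall under the cytoskeleton and traffic by their first letters alone, and THRB, BRWD1, WWTR1 and RSF1, which act in transcription or on chromatin, begin with letters that are not on the list and stand among the hosts of other roles. Of the 10 members in hosts listed under transcription and chromatin, 7 were at 0 and KDM5C-IT1 had at least 10 counts, so that this count leaves out BRWD1-IT2, THRB-IT1, WWTR1-IT1 and RSF1-IT1. Of 13 in genes listed as signalling enzymes and regulators, 11 were at 0 and RABGAP1L-IT1 reached 10. All 6 in channels, transporters and receptors of excitable cells were at 0, as were 4 of 5 in genes of adhesion, matrix and axon guidance and 3 of 4 in genes listed under the cytoskeleton and traffic. The other 80 members, in hosts on none of these lists, hold the remaining 9 with at least 10 counts, and 41 of them were at 0. Over all members 61.0% were at 0 and 9.32% had at least 10 counts, and with 4 to 13 members in each listed group these counts set no group apart from the rest.

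Position in the host varied too. The nearest host exon lay at a median of 1743 nt from members with at least 10 counts, 1627 nt from those with 1 to 9 and 8348 nt from those at 0. An annotated start of the host lay within 1000 nt of 11 of all 118 members (9.32%). These were 2 of the 11 members with at least 10 counts (BRWD1-IT2 and KDM5C-IT1), 4 of 35 with 1 to 9 and 5 of 72 at 0. Such small numbers do not set these levels apart. Exonic bases shared with the host were found in 5 members, and none of them had over 4 counts. SOS1-IT1 shares all of its 1254 nt. Ambiguous pairs were counted for no gene, so the low counts of these members cannot be told apart from the way of counting.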

How the data were processed

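The authors deposited counts of read pairs per gene, without normalization, for both biological replicates in 1 column of LNCaP poly(A)+ RNA-seq. Per the labels and the study's methods, reads were trimmed (Trimmomatic 0.30), mapped to hg19 (TopHat2 2.0.12 with Bowtie2 2.2.3) and counted with htseq-count (HTSeq 0.6.1p1). The 5 summary categories stayed out of all values. Symbols and exons were taken from GENCODE release 44 on GRCh37, which is newer than the annotation the authors counted on, so exonic lengths may differ from those counted. Level per kb is the count over the union of exons. Word copies were counted for 24-nt words of the whole genome. Intervals are exact Poisson and exact binomial (Clopper-Pearson). The ratio interval comes from the binomial interval of the member's share. The steps were tested on simulated data. Python 3.11.15, numpy 2.4.6, pandas 2.3.3, scipy 1.17.1, pysam 0.24.0, numba 0.67.0 and matplotlib 3.10.9 were used.

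Members named were the 15 with the highest counts, the 5 highest per kb, the 8 highest and 8 lowest ratios among pairs with at least 10 counts together, members of the 8 hosts with the highest counts and of hosts with 3 members; others were named after their values were seen. The members and lists were chosen with earlier results of these data known. Repeats, host starts and word copies were added after the counts were seen. A few items are not reported here.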

Additional observations from a re-analysis of the deposited data

How the results depend on the processing

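No paired analysis was possible because both replicates lie in 1 column, and for the same reason no replicate could be left out. With a minimum of 5 counts, 17 members passed in place of 11, and among the members with at most 25% repeated bases, an alternative chosen after seeing the data, 3 passed. The member was above its host in 32 pairs per kb, in 14 by count not divided by length, in 17 of the pairs with at least 10 counts together and in 14 whose Poisson intervals do not overlap. The median log2 ratio of 1.45 became 0.66 with 0.1 added, 3.31 with the length of the whole gene and −0.87 in pairs with at least 10 counts together, where Spearman's rho of 0.32 became −0.055. Fewer pairs entered the last values, and the cause was not tested further. The other 28 values kept their direction, and counts stayed within 1.5 times, whereas the median log2 ratio ran from 0.89 without pairs at 0 in both genes to 2.16 with 1 added, and the median per kb of members opposite exons went from 3.93 to 2.14 when whole genes were used. Among the 28 are those without members that share exons with the host and without members with exons opposite them.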
